A study of Mus musculus with 110 samples.

Results

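Brown fat secretes proteins that act on the fat cell itself, on its vessels and nerves, and on distant organs. The genes described here are 7 of the 56884 in the count tables: Bmp8b, Nrg4, Metrnl, Vegfa, S100b, Clstn3 and Ngfr. They were chosen by name, as factors that brown adipocytes release or that tie the tissue to its nerves and vessels. Earlier results of these data were known at that choice. Their Ensembl rows were matched to symbols. All 7 had at least 10 counts in total in each of the 4 tissues and entered every test.

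Polyadenylated RNA was sequenced from liver, interscapular brown fat (iBAT), inguinal white fat (iWAT) and epididymal white fat (eWAT) of 28 wild-type male C57BL/6N mice, single-housed and 16 weeks old. Every mouse ate a diet with 0% cysteine, so the control animals lacked cysteine as well. Ctrl_RT mice were fed 0.86% methionine and MetR_RT mice 0.12% methionine (methionine restriction, MetR) for 7 days at 22 °C, and Ctrl_CE and MetR_CE mice spent 24 h more on the same diets at 4 °C (cold exposure, CE). Groups held 7 libraries, except for 6 in iBAT Ctrl_RT, iBAT Ctrl_CE, iWAT MetR_CE and eWAT MetR_RT and 4 in eWAT Ctrl_RT. The question was how a sulfur amino acid-poor diet and cold, alone and together, changed the RNA of these factors in each tissue.

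Bmp8b is a bone morphogenetic protein made by mature brown adipocytes that raises their response to noradrenaline. Nrg4 is a neuregulin, an epidermal growth factor-like ligand of the receptors ErbB3 and ErbB4, and Metrnl (meteorin-like) is a secreted protein linked to type 2 immune cells in fat. Vegfa is the main growth factor for vessels. S100b is a calcium-binding protein that thermogenic adipocytes release and that promotes sympathetic innervation, and Clstn3 encodes calsyntenin 3, whose locus also gives rise to an adipocyte form that favours S100b secretion. Ngfr is the low-affinity neurotrophin receptor, found on neurons, Schwann cells and some mesenchymal and immune cells.

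The libraries used held 6987895 to 33444374 counts in liver, 12672686 to 31232349 in iBAT, 16607493 to 33141066 in iWAT and 22021114 to 33372110 in eWAT. Marker genes matched the labelled tissues: hepatocyte markers summed to 51690 to 90060 CPM (counts scaled to the library's total with TMM factors, within a tissue) in liver libraries, and brown adipocyte markers to 8993 to 19610 CPM in iBAT but 22.0 to 75.1 CPM in eWAT. Skeletal muscle markers summed to over 5000 CPM in 4 iWAT libraries, with the highest value, 25020 CPM, in MetR_RT replicate 6. Epididymal markers reached 1280 CPM in 1 eWAT MetR_RT library. In iBAT, the library numbered 1 in each of MetR_CE, MetR_RT and Ctrl_CE carries a treatment tag that names another group than its title. For these 3 libraries the title was followed. Libraries of the same mice from liver, iWAT and eWAT carry tags that match these titles. Ctrl_CE replicate 1, tagged MetR_RT, had a brown adipocyte sum of 18160 CPM. By title, that sum ranged from 15880 to 18800 CPM in iBAT Ctrl_CE and from 10600 to 12720 CPM in MetR_RT. For the other libraries with a conflicting tag the sum could not tell the groups apart. MetR_RT replicate 1, tagged Ctrl_RT, had 10990 CPM, within MetR_RT and Ctrl_RT (8993 to 11750 CPM). MetR_CE replicate 1, tagged Ctrl_CE, had 16620 CPM, within Ctrl_CE and MetR_CE (16120 to 19610 CPM).

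Of the 7 genes, 3 that rose in iWAT are given with their promoters as background to their values, with 250 bases before and 50 bases after the start, 5′ to 3′, from RefSeq on GRCm38.p6. Capitals mark matches, on either strand, to TGACGTCA (the cAMP response element), its part TGACG, TCAAGGTCA (the oestrogen-related receptor element) or ACGTG (a core shared by hypoxia response elements and E-boxes).
Bmp8b, chr4:123104911-123105210, + strand: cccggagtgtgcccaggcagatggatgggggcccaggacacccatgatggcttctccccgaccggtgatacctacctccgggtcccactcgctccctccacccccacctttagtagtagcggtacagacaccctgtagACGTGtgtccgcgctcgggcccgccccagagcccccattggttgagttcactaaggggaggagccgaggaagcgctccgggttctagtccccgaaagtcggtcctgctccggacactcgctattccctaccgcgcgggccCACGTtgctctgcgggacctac
Clstn3, first start, chr6:124464735-124465034, - strand: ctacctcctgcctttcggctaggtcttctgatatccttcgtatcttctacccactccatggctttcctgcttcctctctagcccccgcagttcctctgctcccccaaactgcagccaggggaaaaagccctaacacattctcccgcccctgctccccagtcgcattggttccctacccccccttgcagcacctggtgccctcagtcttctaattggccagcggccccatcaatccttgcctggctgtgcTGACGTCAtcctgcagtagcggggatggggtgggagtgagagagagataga
Clstn3, second start, chr6:124462695-124462994, - strand: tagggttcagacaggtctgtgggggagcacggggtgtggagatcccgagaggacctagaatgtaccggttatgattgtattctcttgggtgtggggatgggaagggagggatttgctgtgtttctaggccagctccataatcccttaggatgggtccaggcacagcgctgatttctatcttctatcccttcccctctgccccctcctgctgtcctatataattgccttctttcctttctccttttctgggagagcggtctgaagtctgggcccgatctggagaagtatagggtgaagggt
S100b, chr10:76253586-76253885, + strand: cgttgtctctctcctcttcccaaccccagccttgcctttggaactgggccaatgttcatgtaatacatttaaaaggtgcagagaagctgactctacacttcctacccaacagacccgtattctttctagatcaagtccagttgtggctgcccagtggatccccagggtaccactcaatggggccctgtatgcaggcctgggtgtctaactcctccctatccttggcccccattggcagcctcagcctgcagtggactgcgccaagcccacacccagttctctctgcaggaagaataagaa
The Bmp8b window held ACGTG with its first base at -112 and at 28, counted from 0 at the start base. The first Clstn3 window held TGACGTCA from -1, across the start itself, and TGACG overlaps it on both strands. None of these letters occurred in the second Clstn3 window or in that of S100b. Of the windows not printed, ACGTG occurred in those of Nrg4, of Ngfr, which fell in iWAT, and in the second of Vegfa. That Vegfa window held TGACG as well. Among 32851 windows of this length, 1.79% held TGACGTCA, 20.8% TGACG, 0.423% TCAAGGTCA and 19.6% ACGTG, so the short motifs are common. These matches describe letters only and say nothing of binding in these mice. In the annotation (GENCODE vM21, GRCm38) Bmp8b lies at chr4:123105165-123132099 (+), Clstn3 at chr6:124430759-124464794 (-), Nrg4 at chr9:55220222-55326844 (-), S100b at chr10:76253853-76261159 (+), Ngfr at chr11:95568818-95587735 (-), Metrnl at chr11:121701544-121716306 (+) and Vegfa at chr17:46016993-46032369 (-), and all are protein coding.

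A gene was called higher or lower where edgeR's quasi-likelihood test gave an adjusted p (Benjamini-Hochberg, over all genes tested) under 0.05 and a difference of at least 1.5-fold either way. The contrasts of Ctrl_CE, MetR_RT and MetR_CE with Ctrl_RT share the Ctrl_RT libraries, so their results are given side by side and not as independent evidence. All-gene shares stand beside the counts as background and not as a test, since the 7 were chosen with earlier results known. In iWAT, all 7 genes were called in MetR_CE, 5 higher (Bmp8b, Nrg4, Vegfa, S100b, Clstn3) and 2 lower (Metrnl, Ngfr), against 22.4% of all genes tested there. Ctrl_CE gave 4 calls in iWAT (3 higher, 1 lower; 6 with DESeq2), against 15.9% of all genes, and MetR_RT gave 5 (3 higher, 2 lower), against 11.6%. In iBAT, 3 genes were called in Ctrl_CE (background 14.7%), 3 in MetR_CE (14.7%) and 1 in MetR_RT (2.5%). Liver gave 2 calls in Ctrl_CE (11.9%), 1 in MetR_CE (13.5%) and 0 in MetR_RT (6.91%), where edgeR gave 1 gene an unadjusted p under 0.05 and DESeq2 called 0. In eWAT edgeR called 0 in all 3 of these contrasts, with 1, 0 and 1 genes at an unadjusted p under 0.05 for Ctrl_CE (2.42%), MetR_RT (0.115%) and MetR_CE (1.3%), and DESeq2 called 1, 0 and 0.

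**Figure D1:**
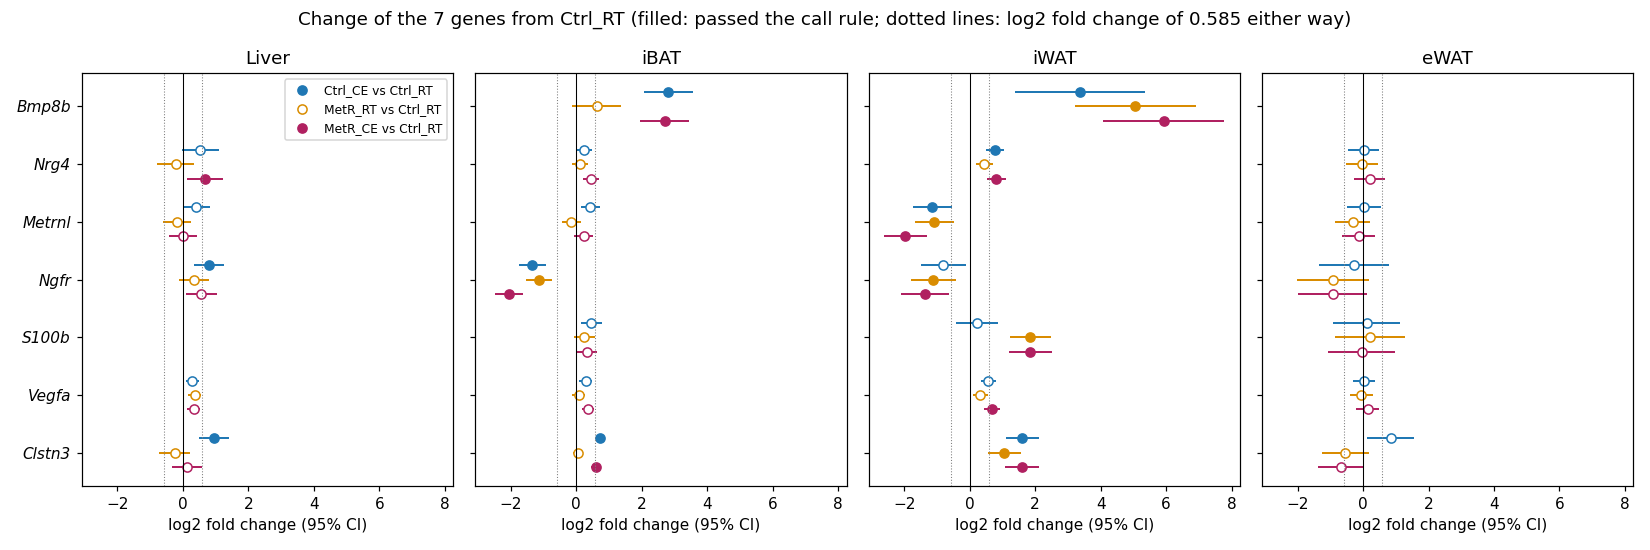
Log2 difference from Ctrl_RT of each of the 7 genes, by tissue, for Ctrl_CE, MetR_RT and MetR_CE, with 95% confidence intervals from edgeR. Filled points passed the call rule, and in iWAT all 7 MetR_CE points are filled. Bmp8b in liver and eWAT and S100b in liver are not drawn, since their counts were too low for a ratio, and the Bmp8b points in iWAT rest on 10 counts in Ctrl_RT.

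Of the 7 genes, Bmp8b had the largest log2 differences in the cold in iBAT. In iBAT Ctrl_RT its level ranged from 3.48 to 18.1 CPM with a median of 6.70 (n = 6). Ctrl_CE libraries held 20.5 to 89.5 CPM with a median of 51.2 (n = 6), and none overlapped with Ctrl_RT. The log2 difference was 2.81 ± 0.35 (SE; edgeR adjusted p = 2.60e-07). In MetR_CE, Bmp8b ranged from 37.1 to 67.95 CPM, median 53.8, also clear of Ctrl_RT, with a log2 difference of 2.7 ± 0.35 (edgeR adjusted p = 4.01e-07). MetR_RT libraries lay between 5.19 and 20.96 CPM, median 12.3, and overlapped with Ctrl_RT. Their log2 difference of 0.62 (95% interval -0.09 to 1.33) did not pass (edgeR adjusted p = 0.314). It did where the 3 libraries with a conflicting tag were placed by that tag, at 1.26 (edgeR adjusted p = 0.0429). That grouping goes against the labels of the same mice in the other tissues, and puts into MetR_RT the library titled Ctrl_CE replicate 1. The brown adipocyte sum of this library was in the Ctrl_CE range. Within the cold, diet made no detectable difference in iBAT, at -0.11 (95% interval -0.74 to 0.52; edgeR adjusted p = 0.902).

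In iWAT, Bmp8b went from nearly no reads to a few CPM. The 7 Ctrl_RT libraries held 0 to 3 counts each, 10 in all. Ctrl_CE held 83 counts in all, or 8.98 times as many per read sequenced (exact 95% interval 4.65 to 19.4). The ratio was 30.8 (16.5 to 64.8) for MetR_RT with 313 counts and 59.7 (32.3 to 125) for MetR_CE with 633. These intervals cover counting error only. Libraries of 1 group differed by more than that: Ctrl_CE ranged from 0.0823 to 2.19 CPM and MetR_RT from 0.116 to 5.71 CPM, both overlapping with Ctrl_RT (0 to 0.155 CPM), while all MetR_CE libraries, at 1.78 to 6.65 CPM, lay above it. All 3 contrasts passed the edgeR test, with adjusted p = 0.00768, 0.000198 and 7.13e-06. MetR_CE was also higher than Ctrl_CE, by 2.56 ± 0.68 on the log2 scale (edgeR adjusted p = 0.0374). In liver and eWAT, group means of Bmp8b were at most 0.111 CPM, too low for a ratio. Bmp8a, a paralog of Bmp8b also on chromosome 4, was lower in MetR_CE iWAT (0.421 against 1.03 CPM, edgeR adjusted p = 0.0376). How reads common to both genes were assigned is uncertain.

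**Figure D2:**
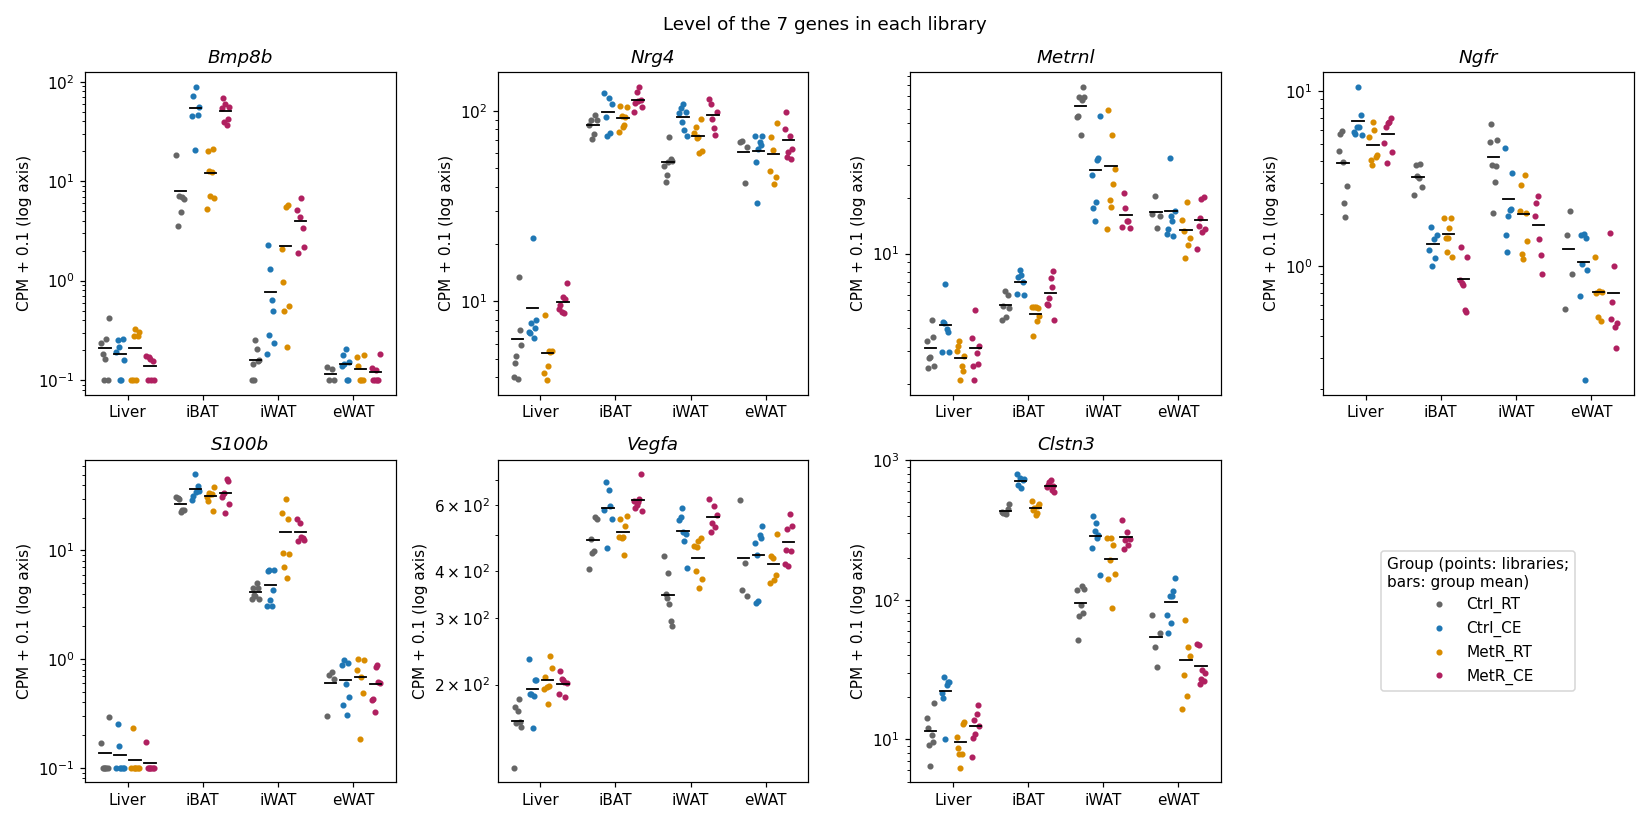
Normalised level (CPM plus 0.1, log axis) of each of the 7 genes in every library, by tissue and group, with bars at the group means. Bmp8b spans from 0 in several libraries to 89.5 CPM in iBAT Ctrl_CE, and within iWAT Metrnl is highest in Ctrl_RT.

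Nrg4, the ErbB ligand, was higher in both cold groups than in Ctrl_RT in iWAT. Ctrl_RT libraries of iWAT held 42.2 to 72.7 CPM with a median of 53.9. Ctrl_CE (73.4 to 108 CPM, median 97.1) and MetR_CE (75.1 to 115 CPM, median 94.5) lay above all of them. The log2 differences were 0.78 ± 0.12 and 0.82 ± 0.12 (edgeR adjusted p = 1.71e-05 and 6.20e-06). MetR_RT, at 59.8 to 90.4 CPM, overlapped with Ctrl_RT, and its difference of 0.45 passed the p limit (edgeR adjusted p = 0.00551) but not the fold limit. In iBAT, Nrg4 went from 84.2 ± 9.38 CPM (SD, n = 6) in Ctrl_RT to 114 ± 12.2 (n = 7) in MetR_CE, where the 2 groups did not overlap. That log2 difference, 0.44, was under the fold limit (edgeR adjusted p = 0.00161). In liver, MetR_CE libraries (8.60 to 12.5 CPM) lay above all MetR_RT libraries (3.77 to 8.35 CPM), by 0.89 ± 0.26 (edgeR adjusted p = 0.0134; 5.18% of genes were called in this contrast). Against Ctrl_RT the liver difference was 0.67 (edgeR adjusted p = 0.0477), a call that was lost with another scaling, without the count filter and when the fold limit was part of the test. In eWAT group means stood at 59.4 to 70.1 CPM, and no contrast passed.

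Metrnl, unlike the other ligands, fell in iWAT. Its Ctrl_RT libraries there held 43.1 to 78.7 CPM, median 66.3. In MetR_CE the range was 13.6 to 21.1 CPM, median 14.9, below every Ctrl_RT library, with a log2 difference of -1.96 ± 0.30 (edgeR adjusted p = 8.80e-06). Ctrl_CE (14.8 to 54.5 CPM, median 26.3) and MetR_RT (13.4 to 59.2 CPM, median 23.6) were wide and each overlapped with Ctrl_RT. Their differences were -1.15 ± 0.28 and -1.08 ± 0.27 (edgeR adjusted p = 0.00215 and 0.00481). Macrophage markers fell beside it in iWAT, where 15.9%, 11.6% and 22.4% of all genes were called in Ctrl_CE, MetR_RT and MetR_CE. In these contrasts 8, 7 and 8 of 8 markers were called lower. Their summed level was 1511 to 2387 CPM in Ctrl_RT, 223 to 524 in MetR_CE, 280 to 1143 in MetR_RT and 325 to 1669 in Ctrl_CE. The MetR_RT libraries with the most Metrnl, replicates 2 and 5 (59.2 and 43.4 CPM), also had the highest macrophage sums (1032 and 1143 CPM). The part of these markers in the fall of Metrnl was not tested, and in bulk RNA fewer cells of a type and less RNA per cell cannot be told apart.

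In iBAT, Metrnl went from 5.17 ± 0.76 CPM (SD, n = 6) in Ctrl_RT to 6.97 ± 0.88 (n = 6) in Ctrl_CE. This log2 difference, 0.43 (edgeR adjusted p = 0.00941), was under the fold limit. The 16 genes listed with it, its paralog Metrn, the receptor gene Kit and type 2 immune genes, had 9, 9 and 11 called lower and 0 higher in iWAT for Ctrl_CE, MetR_RT and MetR_CE, with a median log2 difference of -1.9 in MetR_CE against -0.0774 over all genes tested. The shares of all genes called in either direction were 15.9%, 11.6% and 22.4%. Il1rl1, the interleukin 33 receptor, fell by 3.96 in MetR_CE and Il33 itself fell by 2.47 (edgeR adjusted p = 1.07e-06 and 1.72e-05). Chil3 and Arg1, genes of alternatively activated macrophages, fell there as well (-4.80 and -4.25). Kit, the stem cell factor receptor to which Metrnl has been linked, fell in iBAT (log2 difference -1.52 in Ctrl_CE and -1.32 in MetR_CE) and rose in liver (1.43 and 1.26). Metrn was not called in any of the 3 contrasts in any tissue.

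Among the contrasts within a tissue, Vegfa, the vessel growth factor, was called once, in iWAT MetR_CE. There it ranged from 509 to 622 CPM (median 552), above all Ctrl_RT libraries (285.6 to 439 CPM, median 340.0), with a log2 difference of 0.69 ± 0.10 (edgeR adjusted p = 5.41e-06). Ctrl_CE in iWAT stood at 514 ± 59.9 CPM (SD, n = 7), and its difference of 0.57 lay just under the fold limit (edgeR adjusted p = 8.31e-05), but was 0.59 with DESeq2 or another scaling. In iWAT MetR_RT a difference of 0.33 passed the p limit alone (edgeR adjusted p = 0.0146). Differences from Ctrl_RT that passed only the p limit were also found in iBAT, 0.29 in Ctrl_CE and 0.36 in MetR_CE, and in liver, 0.29, 0.36 and 0.33 in Ctrl_CE, MetR_RT and MetR_CE. The eWAT group means lay between 420 and 479 CPM with no contrast past the p limit. Of 18 genes of the VEGF pathway in iWAT, 3, 4 and 6 were higher and 1, 0 and 0 lower. The shares of all genes called there in either direction were 15.9%, 11.6% and 22.4%. The median log2 difference in MetR_CE was 0.39, against -0.0774 over all genes. Kdr, the main VEGF receptor of endothelial cells, rose by 0.59 in MetR_RT and 0.73 in MetR_CE there, and Flt1, the second receptor, by 0.67 in MetR_CE. The list members that changed most in iWAT MetR_CE were Ppargc1a, a coactivator of mitochondrial and thermogenic genes, which rose by 2.92, Esrra, its nuclear receptor partner (1.39), Epas1, a hypoxia-inducible factor (1.03), and Flt4, the lymphatic VEGF receptor (0.89).

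In liver the receptors were called and the ligand was not. Kdr stood at 29.97 CPM in Ctrl_RT, against 47.5 CPM in MetR_RT, 69.2 CPM in Ctrl_CE and 78.8 CPM in MetR_CE, and all 3 differences passed (edgeR adjusted p = 6.04e-06, 2.58e-10 and 3.60e-12). Flt1 rose by 1.12 in Ctrl_CE and by 1.12 in MetR_CE (edgeR adjusted p = 3.41e-09 and 1.18e-09). Nrp1, a co-receptor, fell in MetR_RT (-1.23) and MetR_CE (-0.87). In liver, 11.9%, 6.91% and 13.5% of all genes were called in Ctrl_CE, MetR_RT and MetR_CE, in either direction. Of 10 endothelial markers there, 8, 3 and 9 rose in these contrasts. They summed to 81.6 to 102 CPM in Ctrl_RT, 106 to 129 in MetR_RT, 131 to 192 in Ctrl_CE and 146 to 166 in MetR_CE. Their part in the change of the receptors was not tested.

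S100b rose in iWAT in both groups on the MetR diet, and Ctrl_CE did not pass the test. Ctrl_RT libraries held 3.44 to 4.95 CPM, median 3.77, and Ctrl_CE libraries 2.98 to 6.58 CPM, median 4.27. These groups overlapped, and the log2 difference was 0.23 (95% interval -0.38 to 0.83; edgeR adjusted p = 0.605). MetR_RT libraries ranged from 5.44 to 29.9 CPM, median 9.40, and MetR_CE libraries from 12.1 to 19.2 CPM, median 13.1, all above every Ctrl_RT library. Both log2 differences were 1.86, with SE of 0.29 and 0.30 (edgeR adjusted p = 9.23e-05 and 1.90e-05). MetR_CE was also higher than Ctrl_CE by 1.63 ± 0.30 (edgeR adjusted p = 0.00654), with no overlap. Of all genes tested, 2.27% were called in that contrast, and of the 7, Bmp8b and S100b. A direct contrast of MetR_RT with Ctrl_CE, chosen after the values were seen, gave 1.63 ± 0.29 (edgeR adjusted p = 0.00263; 1.14% of genes called).

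In iBAT, S100b stood at 26.7 ± 3.93 CPM (SD, n = 6) in Ctrl_RT, and the group means of the other 3 groups were 31.6 to 36.7 CPM. No contrast was called, and Ctrl_CE, at 0.46, passed the p limit alone (edgeR adjusted p = 0.0141). In eWAT its mean was 0.489 to 0.588 CPM in every group, and in liver at most 0.0375 CPM, too low for a ratio. Of 14 other genes listed with it, S100 proteins, calsyntenins and Ager, 5 were lower and 0 higher in iWAT MetR_RT, and 6 lower and 1 higher in MetR_CE, while the other 9 and 7 were not called. Over all genes tested there, 11.6% and 22.4% were called in either direction. Those that fell most in MetR_CE were S100a9 (-5.51), S100a8 (-3.65), S100a4 (-2.84) and S100a6 (-1.96), calcium-binding proteins of neutrophils, macrophages and connective tissue cells. Ager, a receptor for S100 proteins, was not called in any tissue in the 3 contrasts.

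Clstn3 was higher in both cold groups than in Ctrl_RT, in iBAT and in iWAT. In iBAT it was at 414 to 484 CPM in Ctrl_RT (median 425), 634 to 793 in Ctrl_CE (median 722) and 593 to 717 in MetR_CE (median 658), so that neither cold group overlapped with Ctrl_RT. The log2 differences were 0.71 ± 0.06 and 0.59 ± 0.06 (edgeR adjusted p = 2.87e-10 and 5.87e-09). The second was 0.56, under the fold limit, with the 3 libraries grouped by tag, against the labels of their mice in other tissues. MetR_RT (402 to 507 CPM) differed by 0.06 (95% interval -0.06 to 0.18; edgeR adjusted p = 0.618). In iWAT the range was 51.3 to 125 CPM in Ctrl_RT, 150 to 398 in Ctrl_CE, 87.95 to 277.8 in MetR_RT and 231 to 375 in MetR_CE. Both cold groups lay above Ctrl_RT, and MetR_RT overlapped with it. The log2 differences were 1.61 ± 0.23, 1.06 ± 0.23 and 1.59 ± 0.24 (edgeR adjusted p = 1.13e-05, 0.00121 and 7.13e-06). The interaction, the response to cold on the MetR diet minus that on the control diet, was -1.08 ± 0.33 (edgeR adjusted p = 0.0649). No gene of the 7 was called for the interaction in iWAT by edgeR (background 1.65%), with 3 at an unadjusted p under 0.05, and DESeq2 called Clstn3 at an adjusted p of 0.0123.

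In liver and eWAT, Clstn3 in the cold was lower on the MetR diet than on the control diet. Liver Clstn3 was 11.4 ± 3.86 CPM in Ctrl_RT and 22.2 ± 6.01 CPM in Ctrl_CE, against 9.52 ± 2.68 CPM in MetR_RT and 12.4 ± 3.34 CPM in MetR_CE (SD, n = 7 each). It rose by 0.96 ± 0.21 in Ctrl_CE (edgeR adjusted p = 0.000781), and MetR_CE differed from Ctrl_CE by -0.84 ± 0.21 (edgeR adjusted p = 0.00680; 5.26% of genes called). The difference between the 2 responses to cold was not called in liver (-0.59; edgeR adjusted p = 0.339). In eWAT, Ctrl_CE held 57.6 to 144 CPM and MetR_CE 25.1 to 48.03 CPM with no overlap, a log2 difference of -1.53 ± 0.28 (edgeR adjusted p = 0.00116; 4.35% called). Ctrl_CE differed there from the 4 Ctrl_RT libraries (33.2 to 78.2 CPM) by 0.84 (edgeR adjusted p = 0.148), and by 1.2 with the 4 left-out eWAT libraries put back (edgeR adjusted p = 0.0286). The table has 1 row for the whole Clstn3 gene, so its adipocyte form was not measured apart. Clstn1 and Clstn2, the other calsyntenins, were not called in any tissue in the 3 contrasts.

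Ngfr, the receptor, fell in iBAT in every treated group. Ctrl_RT libraries held 2.46 to 3.73 CPM, median 3.13. Ctrl_CE (0.908 to 1.59 CPM, median 1.24), MetR_RT (1.03 to 1.79 CPM, median 1.36) and MetR_CE (0.445 to 1.19 CPM, median 0.699) all lay below that range. The log2 differences were -1.34 ± 0.19, -1.13 ± 0.18 and -2.06 ± 0.19 (edgeR adjusted p = 1.46e-06, 0.000198 and 1.50e-09). It was the 1 gene of the 7 called in iBAT for MetR_RT. MetR_CE differed from MetR_RT by -0.92 ± 0.20 (edgeR adjusted p = 0.000684; 2 of the 7 called, against 8.53% of genes) and from Ctrl_CE by -0.71 ± 0.20 (edgeR adjusted p = 0.0386; 1 of the 7, against 1.64%). The last call was lost in 5 of 11 alternatives, among them the omission of the 3 libraries with a conflicting tag (edgeR adjusted p = 0.0783). For the interaction in iBAT edgeR called 0 of the 7 (background 0.372%), with 1 at an unadjusted p under 0.05, and DESeq2 called 0.

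In iWAT, Ngfr went from 4.11 ± 1.53 CPM in Ctrl_RT (SD, n = 7) to 2.33 ± 1.23 in Ctrl_CE, 1.901 ± 0.867 in MetR_RT and 1.61 ± 0.65 in MetR_CE (n = 6), with overlapping ranges throughout. The falls of -1.11 in MetR_RT and -1.36 in MetR_CE passed (edgeR adjusted p = 0.0129 and 0.00223), and the value of -0.80 in Ctrl_CE did not (edgeR adjusted p = 0.0562). The last was called in 3 of 9 alternatives, at an adjusted p of 0.0408 with edgeR's filterByExpr, 0.0480 with a replicate block and 0.0387 with DESeq2. Liver Ngfr went in the opposite direction, from 1.82 to 5.85 CPM (median 3.86) in Ctrl_RT to 5.52 to 10.5 CPM (median 6.11) in Ctrl_CE, a rise of 0.81 ± 0.21 (edgeR adjusted p = 0.00367). In eWAT group means were 0.607 to 1.16 CPM. The 4 left-out eWAT libraries held 1.73, 5.05 and 9.08 CPM in Ctrl_RT and 7.71 CPM in MetR_RT. The first lay within the range of the Ctrl_RT libraries used (0.472 to 1.97 CPM), and the others lay above their groups. With all 4 put back, the mean of Ctrl_RT became 2.94 CPM and MetR_CE was called lower (-2.22, edgeR adjusted p = 0.0408).

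Schwann cells are known to express Ngfr and S100b, and the summed level of 14 other Schwann cell markers did not separate the groups: it was 61.0 to 197 CPM over iBAT libraries and 234 to 719 CPM over iWAT libraries, with every pair of groups overlapping. Of the 14 markers, 2, 0 and 3 were lower in iBAT for Ctrl_CE, MetR_RT and MetR_CE and 2, 0 and 2 in iWAT, and 0 were higher in either depot. Macrophage markers, whose cells can also carry Ngfr, did move. In iBAT their sum was 80.6 to 139 CPM in Ctrl_RT and 34.8 to 60.9 CPM in MetR_CE, with no overlap, and Ctrl_CE (52.6 to 128 CPM) and MetR_RT (46.97 to 89.6 CPM) overlapped with Ctrl_RT. There 0, 4 and 7 of the 8 markers were called lower in Ctrl_CE, MetR_RT and MetR_CE, and in iWAT, as given beside Metrnl, 8, 7 and 8. The part of either cell type in the fall of Ngfr was not tested. Of 21 neurotrophins and their receptors in iBAT, Ctrl_CE had 3 higher and 5 lower, MetR_RT 0 higher and 2 lower, and MetR_CE 0 higher and 6 lower. Beside the counts of this paragraph, 14.7%, 2.5% and 14.7% of all genes were called in iBAT and 15.9%, 11.6% and 22.4% in iWAT. Ntrk3, the neurotrophin 3 receptor, fell in Ctrl_CE (-1.3) and MetR_CE (-0.84) (edgeR adjusted p = 1.92e-05 and 0.00175). Cntfr, the ciliary neurotrophic factor receptor, rose by 1.64, 1.60 and 2.99 in iWAT (edgeR adjusted p = 0.0238, 0.0344 and 0.000145). In iBAT, Cntfr rose in Ctrl_CE (1.39) and fell in MetR_RT (-1.38) (edgeR adjusted p = 0.00855 and 0.0461). Ret, the signalling receptor of the GDNF family, also rose in iWAT MetR_CE (0.83), while Gfra2, a co-receptor of that family, and Bex3, a partner of Ngfr, fell (-1.83 and -0.84). Sort1, a co-receptor of Ngfr, was not called in any tissue.

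The 7 iWAT libraries of MetR_RT were spread widely, and for 3 genes the same libraries were high. Replicates 1, 4 and 6 held 1.97, 5.42 and 5.71 CPM of Bmp8b, and the other 4 held 0.116 to 0.875. For S100b the same replicates held 21.9, 29.9 and 19.3 CPM, against 5.44 to 9.40. For Clstn3 they held 277.8, 276.4 and 246.5 CPM, against 87.95 to 194. All 8 brown adipocyte markers rose in MetR_RT iWAT, where 11.6% of all genes were called in either direction. They summed to 5107, 5242 and 5124 CPM in replicates 1, 4 and 6 and to 497 to 1931 CPM in the others. The same markers summed to 112 to 896 CPM in Ctrl_RT, 899 to 6120 in Ctrl_CE and 3411 to 7958 in MetR_CE. In Ctrl_CE, S100b ranged from 2.98 to 6.58 CPM and Clstn3 from 150 to 398 CPM. The part of brown adipocyte content in these changes was not tested. Without the 4 libraries rich in muscle markers, MetR_RT against Ctrl_RT gave 1.97 for S100b on the log2 scale, and the calls of Bmp8b and S100b stood (edgeR adjusted p = 0.000783 and 0.000301).

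**Figure D3:**
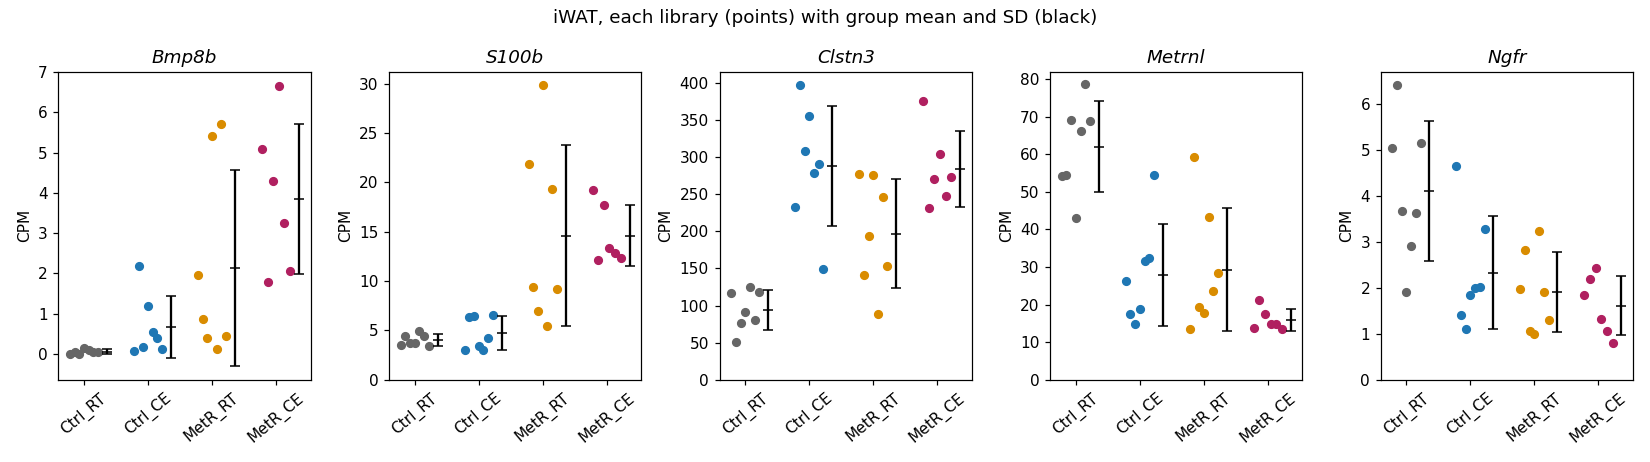
Level in CPM (vertical axis) of Bmp8b, S100b, Clstn3, Metrnl and Ngfr in each iWAT library, by group, with the group mean and SD. In MetR_RT, 3 libraries stand above the other 4 for Bmp8b, S100b and Clstn3, and S100b in Ctrl_CE stays within 2.98 to 6.58 CPM.

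A joint edgeR fit over the 3 fat depots tested whether levels and responses differed between them. In Ctrl_RT, 6 of the 7 genes differed between iWAT and iBAT, against 34.1% of all genes. Bmp8b was called lower in iWAT, at 0.0565 ± 0.0519 CPM (SD, n = 7, scaled over the 3 depots) against 9.73 ± 6.61 CPM (n = 6) in iBAT, and no fold is given since iWAT Ctrl_RT held 0 to 3 counts per library. The log2 difference, iWAT minus iBAT, was -3.11 ± 0.26 for S100b, -2.60 ± 0.23 for Clstn3, -1.04 ± 0.15 for Nrg4 and -0.87 ± 0.11 for Vegfa. Metrnl was higher in iWAT by 3.20 ± 0.25, and Ngfr did not differ detectably (0.01; 95% interval -0.65 to 0.66). Against eWAT, iWAT was higher in 4 of the 7 (16% of all genes): S100b by 3.15, Metrnl by 2.09, Ngfr by 1.99 and Clstn3 by 0.98. The Ngfr difference was 0.69 and not called with all eWAT libraries. The eWAT libraries carry a separate run of library numbers, so depot and library preparation cannot be told apart in these level differences.

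The responses differed as well. For MetR_RT, iWAT responded more than iBAT in Bmp8b, S100b (by 1.64 ± 0.34) and Clstn3 (1.02 ± 0.31), which made 3 of the 7 against 3.82% of genes (edgeR adjusted p = 0.000557, 0.000879 and 0.0282). For MetR_CE the same 3 genes differed, S100b by 1.55 and Clstn3 by 1.03, and Metrnl by -2.16 (background 10.4%). The size of the Bmp8b differences rests on the 10 counts of iWAT Ctrl_RT and is no bound. For Ctrl_CE, Clstn3 (0.88; edgeR adjusted p = 0.0459) and Metrnl (-1.59; edgeR adjusted p = 0.000207) differed (background 8.58%). The Clstn3 calls were lost with all libraries (edgeR adjusted p = 0.0784 for MetR_RT and 0.0929 for Ctrl_CE), and that for Ctrl_CE also with RLE scaling (0.0592). In Ctrl_CE, S100b, at -0.25 (95% interval -0.95 to 0.46), did not pass. Between iWAT and eWAT, 2 of the 7 differed for Ctrl_CE (4.2% of genes), 2 for MetR_RT (3.56%) and 4 for MetR_CE (11.2%). The largest of these was Clstn3 in MetR_CE, 2.30 ± 0.33 (edgeR adjusted p = 2.68e-07). Bmp8b is not compared with eWAT, where it was at or under 3 counts in each library used. The depots came from the same mice, and with the mouse as a block (limma-voom) both S100b calls against eWAT were lost, for MetR_RT (1.64 and edgeR adjusted p = 0.0463 without the block, limma adjusted p = 0.227 with it) and for MetR_CE (limma adjusted p = 0.0584). RLE scaling also lost the first (edgeR adjusted p = 0.0520). Nrg4 against eWAT was called for Ctrl_CE and MetR_CE, but neither call stood with all libraries (edgeR adjusted p = 0.225 and 0.338), and that for MetR_CE was lost with RLE scaling (0.0551).

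**Figure D4:**
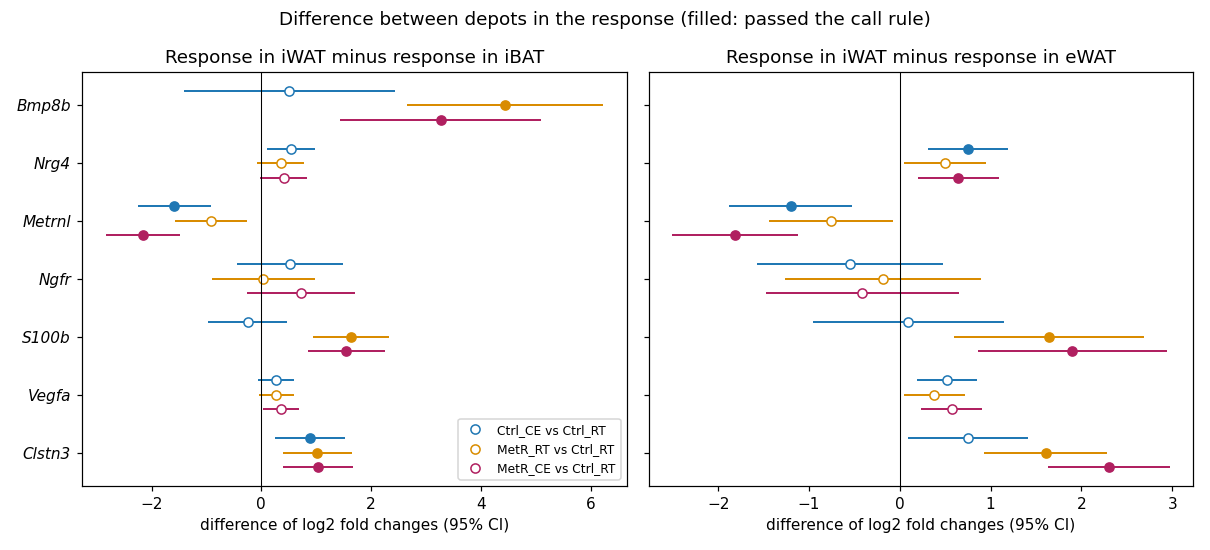
Difference between iWAT and iBAT and between iWAT and eWAT in the log2 response of each gene to Ctrl_CE, MetR_RT and MetR_CE, with 95% confidence intervals. Filled points passed the call rule: Bmp8b, S100b and Clstn3 lie above 0 and Metrnl below 0 for MetR_CE in iWAT minus iBAT. The Bmp8b points rest on 10 counts in iWAT Ctrl_RT, and Bmp8b is not drawn against eWAT.

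The remaining contrasts gave few calls. Cold on the MetR diet (MetR_CE against MetR_RT) gave 0 of the 7 in iWAT by edgeR (background 1.88%), with 4 genes at an unadjusted p under 0.05 and 1 call by DESeq2, Metrnl. In eWAT the same contrast gave 0 (0.112%), with 0 at an unadjusted p under 0.05 and 0 by DESeq2. For the interaction edgeR called 0 in liver (1.06%) and 0 in eWAT (2.3%), with 1 gene each at an unadjusted p under 0.05 and 0 calls by DESeq2.

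The pathway partners of Bmp8b and Nrg4 were called in both directions. Of 30 BMP pathway genes in iWAT, 1, 0 and 3 were higher and 2, 2 and 4 lower in Ctrl_CE, MetR_RT and MetR_CE, and of 29 in iBAT, 2, 0 and 3 were higher and 4, 1 and 5 lower. Over all genes tested, 15.9%, 11.6% and 22.4% were called in iWAT and 14.7%, 2.5% and 14.7% in iBAT, in either direction. Acvr2b, a type II receptor of the family, fell in iBAT (-1.0 in Ctrl_CE and -0.88 in MetR_CE) and in iWAT Ctrl_CE (-0.72). The type I receptors Bmpr1b in iBAT MetR_CE (-2.41) and Acvr1 and Acvr1c in eWAT Ctrl_CE (-0.81 and -0.94) fell too, and Bmpr1a, Acvr2a and Bmpr2 were not called in any tissue. Smad7 and Smad6, inhibitors of the pathway, rose by 1.16 and 1.08 in MetR_CE iWAT (edgeR adjusted p = 4.02e-05 and 0.00147), while Gdf10 and Bmp7, ligands of the family, fell in that group (-1.65 and -1.2) and Chrdl1, a secreted BMP antagonist, fell in Ctrl_CE (-1.23). Among 15 neuregulins, other ErbB ligands and receptors in iWAT, 0, 1 and 1 were higher and 4, 2 and 5 lower. Egfr, the founding ErbB receptor, fell there in Ctrl_CE, MetR_RT and MetR_CE (-0.87, -0.89 and -1.52, edgeR adjusted p = 0.00307, 0.00340 and 8.73e-06). Errfi1, an inhibitor of ErbB receptors, and Tgfa, a ligand of Egfr, fell in iWAT MetR_CE (-1.35 and -1.21). Erbb4 fell in iBAT (-1.45 in Ctrl_CE and -0.91 in MetR_CE) and rose in iWAT by 0.70 in MetR_RT and 0.70 in MetR_CE. Erbb3, an ErbB receptor at 126 to 183 CPM in liver, was not called in any tissue.

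Each gene was also set beside the genes most like it over the libraries of a depot, by Pearson's r of log2 CPM, as a description over libraries that share groups and depth. In iWAT (27 libraries, 13904 genes) Bmp8b ran closest with Rmdn1, Kng2 and Gnas (r = 0.947 to 0.929), S100b with Idh2, Akr1b10 and Tom1l2 (0.898 to 0.880) and Clstn3 with 4931406C07Rik, Grpel1 and Polrmt (0.981 to 0.973). Nrg4 ran with Trmt10c, Hsd17b12 and Ifrd2 (0.949 to 0.943) and Vegfa with Dvl1, Tstd3 and Tmem11 (0.941 to 0.929). Metrnl ran with Emp3, Lsp1 and Myof (0.983 to 0.980), and Ngfr with Ptpn22, Mir142hg and Irf5 (0.854 to 0.840). In iBAT (26 libraries, 12685 genes) the closest were Mapkapk2 for Clstn3 (0.973), Podn for Ngfr (0.894), Tbk1 for Vegfa (0.902), Ythdf3 for Nrg4 (0.898), Txndc11 for Metrnl (0.839) and Gsdme for S100b (0.728). No gene was among the 3 closest to the same member in both depots.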

How the data were processed

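Polyadenylated RNA libraries (NEBNext Ultra II, paired reads) from 28 mice gave 110 libraries. The authors deposited raw counts per gene. Their methods name STAR 2.7.9a on mm10 with GENCODE vM25, featureCounts 2.0.3, Salmon 1.9.0 and DESeq2 1.46.0, and the tables name Salmon. Of 56884 gene identifiers, 51948 matched a symbol, but only 35 carried the version in the GENCODE vM21 reference, so the annotation behind the counts is uncertain and coordinates come from the reference alone.

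Samples were grouped by title. A total of 105 libraries were used. The other 5 (iBAT Ctrl_CE replicate 5, eWAT Ctrl_RT replicates 2, 4 and 5, and eWAT MetR_RT replicate 7) were left out because their omission brought mean counts closest to those in the study's own tables (median deviation 0.251% in iBAT and 0.151% in eWAT). The next best omission gave 1.15% and 0.775%.

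Each tissue was fitted in edgeR 4.0.16 (R 4.3.3; TMM scaling, quasi-likelihood test, genes with at least 10 counts in total) with 6 contrasts, and the 3 fat depots in 1 joint fit. Limma 3.58.1 and DESeq2 1.42.0 served as alternatives. CPM is scaled within a tissue, so levels are not compared across tissues except in the joint fit. The fits were tested on simulated data. Alternatives were another scaling (RLE), other filters, all libraries, grouping by treatment tag, a replicate block, and leaving out single eWAT libraries. Likeness used log2 CPM with a prior count of 2 among genes with a mean of at least 1 CPM. By the labels, same-numbered replicates of different groups are different mice, so the numbers were not used as pairs. Same-numbered deviations correlated from -0.603 to 0.588 in iBAT and from -0.593 to 0.699 in eWAT.

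The 7 genes and all lists were chosen with earlier results of these data known. Named pathway genes were up to 4 called genes per list, tissue and contrast with the largest change and a mean of at least 1 CPM, plus the receptors and closest paralogs of the 7 whatever their change, and any marker. This rule selects 76 pathway genes. The text names those of MetR_CE in iWAT and some others chosen after their values were seen, and gives the rest as counts. Some genes are not reported here.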

Additional observations from a re-analysis of the deposited data

Results flagged for a closer look

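Of 100 groups of 4 to 10 libraries examined for a library far from the rest, 10 held one, and chance gives about 1 in 20. In liver Ctrl_CE, replicate 4 stood above its group for 3 genes, at 21.5 CPM for Nrg4, 10.5 CPM for Ngfr and 6.80 CPM for Metrnl. Nrg4 also had a high library in liver Ctrl_RT (replicate 5, 13.4 CPM) and MetR_RT (replicate 2, 8.35 CPM) and a low one in eWAT Ctrl_RT (replicate 6, 41.6 CPM). Bmp8b in iBAT Ctrl_RT replicate 1 was 18.05 CPM, Vegfa in iBAT MetR_CE replicate 6 was 725 CPM, Metrnl in eWAT Ctrl_CE replicate 3 was 32.6 CPM, and Ngfr in eWAT MetR_RT replicate 1 was 1.03 CPM.

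Between depots, 17 of 42 differences in response passed the joint edgeR test, against 3.56% to 11.2% of all genes per contrast. These contrasts share Ctrl_RT libraries, so the 42 differences are not independent. For iWAT minus iBAT, Bmp8b differed by a fitted 4.44 in MetR_RT and 3.26 in MetR_CE, sizes that rest on 10 counts in iWAT Ctrl_RT, S100b by 1.64 and 1.55, and Clstn3 by 1.02 and 1.03, with 0.88 in Ctrl_CE. Metrnl differed by -1.59 in Ctrl_CE and -2.16 in MetR_CE. For iWAT minus eWAT, Clstn3 differed by 1.60 in MetR_RT and 2.30 in MetR_CE, and S100b by 1.64 and 1.897, calls that were lost with the mouse as a block (limma adjusted p = 0.227 and 0.0584). Nrg4 differed by 0.75 in Ctrl_CE and 0.65 in MetR_CE, calls that were lost with all libraries (edgeR adjusted p = 0.225 and 0.338), and Metrnl by -1.20 and -1.81.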

How the results depend on the processing

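Over the 6 contrasts edgeR called the 7 genes 18 times in iWAT, 10 in iBAT, 5 in liver, 1 in eWAT and 27 times between depots. Per contrast, 1.65% to 22.4% of all genes were called in iWAT and 0.372% to 14.7% in iBAT. Liver had 1.06% to 13.5% and eWAT 0.112% to 4.35%. Between depots the shares were 3.56% to 11.2% for responses, and 16% and 34.1% for levels in Ctrl_RT. No call reversed under any alternative run. With the adjusted p alone, liver gave 9 (MetR_RT 1, MetR_CE 3), iBAT 19 (Ctrl_CE 6, MetR_CE 5, MetR_CE against MetR_RT 6) and iWAT 1 for MetR_CE against MetR_RT. With the fold limit inside the test (glmTreat), liver gave 0, in all 4 contrasts that had calls, and iBAT 5, with 0 for MetR_RT, 1 for MetR_CE against MetR_RT and 0 for MetR_CE against Ctrl_CE. iWAT then gave 8, with 1 for Ctrl_CE, 2 for MetR_RT and 0 for MetR_CE against Ctrl_CE, and eWAT 0, also for MetR_CE against Ctrl_CE. Liver MetR_CE gave 0 with RLE scaling and 0 without the count filter. iBAT MetR_CE against Ctrl_CE gave 0 without the count filter, 0 with only the compared groups fitted, 0 with groups by treatment tag and 0 without the 3 libraries whose tag differs, and tag grouping gave 2 for MetR_RT. In iWAT the interaction and MetR_CE against MetR_RT gave 1 each with filterByExpr and 1 each with DESeq2. In eWAT DESeq2 gave 2 (Ctrl_CE 1) and all libraries gave 3 (Ctrl_CE 1, MetR_CE 1). With all libraries, eWAT means became 0.0985 (Ctrl_RT) and 0.122 CPM (MetR_RT) for Bmp8b and 2.94 and 1.64 CPM for Ngfr. Between depots, RLE gave 1 for Ctrl_CE in iWAT minus iBAT and 1 for MetR_RT in iWAT minus eWAT, and all libraries gave 1 for Ctrl_CE in each pair. The cause of these shifts was not tested. Leaving out each eWAT Ctrl_RT library gave 1 to 1 calls. Chosen after seeing the data, omission of liver Ctrl_CE replicate 4 gave 5.

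With a replicate block the totals were 5, 10, 19 and 1, and the added call was Ngfr in iWAT Ctrl_CE (-0.79; edgeR adjusted p = 0.048). Same-numbered samples are different mice, so the block does not pair them. With the mouse as a replicate block across depots (limma-voom, correlation 0.0535) 26 depot differences passed, and MetR_RT in iWAT minus eWAT gave 1. S100b lost its call there and for MetR_CE, where Bmp8b, not compared with eWAT in the report, gained one.

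Low counts limited Bmp8b, with under 4 counts in each library used of eWAT and of iWAT Ctrl_RT. The left-out eWAT libraries held 1 to 18. S100b in liver was limited as well, at 0 to 3 counts per library, and eWAT Ctrl_RT held 4 libraries.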

Other observations

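Other factors known from brown fat were read from a list of 20. Fgf21, a hormone of liver and fat, rose in iWAT by 2.84 in Ctrl_CE, 1.52 in MetR_RT and 4.03 in MetR_CE on the log2 scale (edgeR adjusted p = 4.24e-06, 0.00415 and 4.99e-08), from 0.398 CPM in Ctrl_RT to 6.57 CPM in MetR_CE. In iBAT Fgf21 rose by 2.26 in Ctrl_CE and 2.42 in MetR_CE, and in liver by 3.05 in MetR_RT and 1.9 in MetR_CE. Gdf15, a stress-induced hormone, rose in iBAT by 3.55 in Ctrl_CE and 2.89 in MetR_CE and fell in liver (-1.18 and -1.2) and in iWAT MetR_RT (-2.20; edgeR adjusted p = 0.00851). In iWAT MetR_CE, Fstl1, a secreted follistatin-like glycoprotein, fell by 2.52 (edgeR adjusted p = 1.28e-06) and Slit2, a secreted guidance protein, fell by 1.59, while Lep, the adipocyte hormone leptin, rose by 1.47. Of the list, 3, 2 and 4 genes were higher and 3, 4 and 8 lower in iWAT for Ctrl_CE, MetR_RT and MetR_CE, and 5, 0 and 5 higher and 5, 3 and 7 lower among 19 in iBAT. Over all genes tested, 15.9%, 11.6% and 22.4% were called in iWAT and 14.7%, 2.5% and 14.7% in iBAT, in either direction.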
